A study of Mus musculus with 3 samples.

Results

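The microRNAs miR-221 and miR-222 were followed through their 4 mature arms, mmu-miR-221-3p, mmu-miR-221-5p, mmu-miR-222-3p and mmu-miR-222-5p (written without the mouse prefix from here on), which were taken by name from tables of 1915 mature mouse miRNAs. All 4 arms were listed and all 4 had counts in each of 3 small RNA libraries. The libraries were made from exosomes, membrane vesicles that cells release, shed into culture medium by bone-marrow-derived macrophages of adult wild-type C57BL/6 mice. Marrow cells received M-CSF, a growth factor from which macrophages form, for 24 h, then medium whose serum had been cleared of exosomes, and vesicles were pelleted after 72 h of culture. All 3 libraries belong to 1 group, with no treatment and no other genotype, and they are called libraries 1, 2 and 3 after the numbers in their titles. The labels do not say whether they came from separate animals or cultures, so the spread between them may be technical, and no library of the parent cells was analysed here.

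MiRNAs are short RNAs cut from a folded hairpin, whose 5p and 3p strands pair with each other before one of them is kept in an Argonaute protein and the other is mostly degraded. The kept strand recognises messenger RNAs mainly through its seed, bases 2 to 8. The miR-221 and miR-222 genes lie side by side and are transcribed together. Their 3p arms are known to repress the cell-cycle inhibitors CDKN1B and CDKN1C and the stem cell factor receptor KIT, as shown in human cells, and to act in blood progenitors, endothelium and, in mouse macrophages, in tolerance to endotoxin.

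The mature sequences show how far the arms can be told apart in the counts. They are given 5′ to 3′ from RefSeq (GRCm38.p6), with the seed in capitals, together with miR-1928, the other mouse miRNA in that table with the 3p seed.
miR-221-3p: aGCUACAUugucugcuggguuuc
miR-222-3p: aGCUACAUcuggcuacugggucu
miR-1928: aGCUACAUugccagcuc
miR-221-5p: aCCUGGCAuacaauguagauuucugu

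The 3p arms of miR-221 and miR-222 are both 23 bases long. They share their first 8 bases, and with them the whole seed, and first differ at position 9. Without gaps they have the same base at 11 of 23 positions. Turning the one into the other takes 5 edits (substitutions, insertions or deletions), and none of the other miRNAs compared (1622 in all for each arm) was nearer to either. The miR-221-5p seed was found in no other RefSeq mouse miRNA. MiR-1928 had 8, 5 and 2 counts in libraries 1, 2 and 3, so nearly all counts with the shared 3p seed came from miR-221-3p and miR-222-3p. The letters GGCU, a motif bound by the RNA-binding protein SYNCRIP and linked to sorting into exosomes of mouse hepatocytes, occur once in miR-222-3p, from base 11, and not in miR-221-3p or miR-221-5p. Of 1679 mature mouse miRNAs in RefSeq 13.3% hold these letters on the mature strand. GGAG, a motif linked to sorting through hnRNPA2B1 in human T cells, was in none of miR-221-3p, miR-221-5p and miR-222-3p and in 14.2% of the same miRNAs. The sequence of miR-222-5p was not in the RefSeq set used, so that arm was not searched.

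The hairpins show where each arm lies. Capitals mark the mature arms that RefSeq lists.
mir-221: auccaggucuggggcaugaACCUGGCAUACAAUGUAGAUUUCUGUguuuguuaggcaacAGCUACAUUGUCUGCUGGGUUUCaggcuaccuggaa
mir-222: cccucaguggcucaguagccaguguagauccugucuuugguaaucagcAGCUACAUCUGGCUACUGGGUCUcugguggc

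Mir221 lies on chromosome X at 19146294 to 19146388 and Mir222 at 19146893 to 19146971, both on the minus strand (GRCm38), so that mir-222 comes first in the direction of transcription. They are 504 bases apart. Leaving out genes named after these miRNAs, no gene in GENCODE M21 or RefSeq overlaps them. A host gene bearing such a name would not have been seen, so this search cannot tell whether the hairpins lie in one. The nearest GENCODE gene upstream is Gm14636, a noncoding transcript on the same strand, 10009 bases away. In predicted folds (RNAfold) the hairpins had minimum free energies of -42.8 kcal/mol for mir-221 and -40.7 kcal/mol for mir-222, with 21 of 23 bases of miR-221-3p paired and 19 of 23 bases of miR-222-3p.

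The match to the shared seed can be seen in the known target genes, whose own RNA was not measured here. The letters ATGTAGC, the complement of seed bases 2 to 8, occur on the transcript strand in the longest annotated 3′ untranslated region of 9.44% of 20961 protein-coding mouse genes, and followed by an A in 3.48%. Cdkn1b and Cdkn1c, the inhibitors p27 and p57 of cyclin-dependent kinases, hold 1 such match each, and Kit, the stem cell factor receptor, holds 2, all of them followed by an A. Capitals mark the match and that A, and no more than 29 bases are shown for each, Cdkn1b on chromosome 6 from 134924420 to 134924448, Cdkn1c on chromosome 7 from 143458915 to 143458943 (minus strand), and Kit on chromosome 5 from 75654981 to 75655009 and from 75656512 to 75656540.
Cdkn1b: aaaagcattggATGTAGCAttgcgcaatt
Cdkn1c: acctttcgttcATGTAGCAggaaccggag
Kit site 1: atgggagatatATGTAGCAagactagaaa
Kit site 2: taaatattgaaATGTAGCAataatgtctt

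The miRNA counts summed to 3008995, 2489984 and 3208617 in libraries 1, 2 and 3, and they were scaled to counts per 1000000 miRNA counts (CPM). At these depths a miRNA with no count could have up to 0.997, 1.20 and 0.935 CPM (3 counts). Intervals and this floor cover counting error only, since PCR reads without molecular identifiers are not independent molecules. Library 1 stood apart from the others: over 472 miRNAs, on the log2(CPM + 1) scale, Pearson's r was 0.97 between libraries 2 and 3 but 0.91 and 0.89 for library 1 against libraries 2 and 3. Its values for the 4 arms are therefore given separately throughout. All 7 myeloid markers had counts in every library, and together took 7.13%, 34.5% and 30.02% of miRNA counts in libraries 1, 2 and 3. The sum was thus lowest in library 1, where miR-221-3p was highest by CPM. MiR-21a-5p made up most of the sum in libraries 2 and 3, and together with miR-146a-5p nearly all of it in library 1. MiR-342-3p alone of these markers was highest in library 1, at 148.9, 106.4 and 65.4 CPM in libraries 1, 2 and 3. Among them miR-21a-5p had 37316, 305278 and 261488 CPM, miR-155-5p 74.8, 2388 and 829 CPM, and the haematopoietic miR-142a-3p 42.9, 1364 and 819 CPM, while miR-146a-5p was level at 33401 to 36543 CPM and miR-223-3p reached only 35.6, 52.6 and 33.0 CPM. Markers of other cells, some of which also make miR-221 and miR-222, were low for endothelium (miR-126a-3p and miR-126a-5p, together 25.9, 44.6 and 25.2 CPM in libraries 1, 2 and 3) and for red cells (miR-451a, miR-144-3p and miR-486a-5p, together 89.7, 27.7 and 15.6 CPM). The lymphocyte miRNA miR-150-5p was at 0 counts in libraries 1 and 2. The epithelial list summed to 82.8, 459 and 285 CPM, the stromal list to between 135 and 247 CPM, and the hepatocyte miRNA miR-122-5p was at 321.7, 548 and 1500 CPM. The part of the myeloid and the other markers in the levels below was not tested.

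MiR-221-3p, the more abundant arm of its hairpin, was among the abundant miRNAs of the exosomes. It had 78280, 44170 and 31892 counts in libraries 1, 2 and 3, or 26015, 17739 and 9939 CPM. These were 2.60% (Wilson 95% interval 2.58 to 2.62), 1.77% (1.76 to 1.79) and 0.994% (0.983 to 1.00) of miRNA counts. Library 1 thus held 2.62 times the CPM of library 3, with library 2 between them. The mean was 17898 ± 8039 CPM (SD, n = 3), which gave the arm rank 14 by mean CPM, and its rank within a library was 15, 11 and 19. Without library 1 it averaged 13839 CPM.

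MiR-222-3p, which carries the same seed, was lower in each library. It had 16483, 12158 and 19222 counts in libraries 1, 2 and 3, or 5478, 4883 and 5991 CPM. Library 3, the lowest for miR-221-3p, was the highest for miR-222-3p. The mean was 5450 ± 554 CPM (SD, n = 3), rank 29 by mean CPM and ranks 29, 31 and 24 by library, and without library 1 the mean was 5437 CPM. Its coefficient of variation, 10.2%, was lower than that of all but 4 of the 134 miRNAs that averaged 100 CPM or more, whose median was 59.6%, while that of miR-221-3p was 44.9%. The order of these 2 coefficients depended on the scaling, since with TMM factors, which allow for the composition of each library, they were 31.3% for miR-222-3p and 23.5% for miR-221-3p.

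The 5p arms were far lower but well above the floor. MiR-221-5p had 211, 326 and 408 counts, or 70.1, 131 and 127 CPM, in libraries 1, 2 and 3, and averaged 109 ± 34.1 CPM (SD, n = 3). It was lowest in library 1, where miR-221-3p was highest by CPM. MiR-222-5p had 524, 275 and 414 counts, or 174, 110.4 and 129 CPM, averaged 138 ± 32.8 CPM (SD, n = 3) and was highest in library 1. By mean CPM the order of the arms was miR-221-3p, miR-222-3p, miR-222-5p and miR-221-5p. The last 2 overlapped between libraries and their means differed by less than their SDs.

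**Figure D1:**
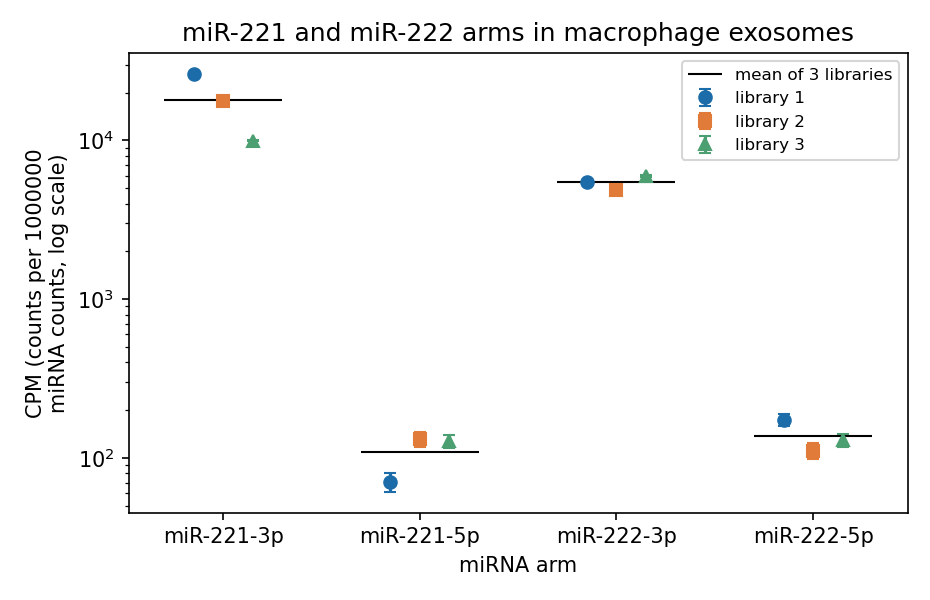
CPM (log scale) of the 4 arms in libraries 1, 2 and 3 with Wilson 95% intervals (counting error only) and the mean as a line. MiR-221-3p lies between 9939 and 26015 CPM and miR-222-3p between 4883 and 5991 CPM, while both 5p arms stay between 70.1 and 174 CPM.

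Together the 3p arms took 3.15%, 2.26% and 1.59% of miRNA counts in libraries 1, 2 and 3. Summed over both hairpins the 5p arms were close to level with scaling to totals, at 244, 241 and 256 CPM, but not with TMM factors, at 177, 268 and 319, or with DESeq2 size factors, at 166, 274 and 332, where library 1 was lowest. The 4 arms made up 77.7%, 85.4% and 83.3% of the counts of 148 miRNA names in libraries 1, 2 and 3. These were the names that RefSeq places only on chromosome X, with miR-222-5p added. Names with copies on X and on another chromosome, such as let-7f-5p and miR-92a-3p, are left out of this share. Other X-linked names not placed in this way are left out too, so the share of all X-linked counts is lower. Of the names counted miR-221-3p and miR-222-3p ranked first and second by the mean, ahead of miR-1198-5p, which had 2820, 359 and 162 CPM in libraries 1, 2 and 3. MiR-532-5p, an X-linked miRNA that was not among them, averaged 5746 CPM, above miR-222-3p at 5450 CPM.

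The difference between libraries was compared with counting error for each miRNA in the whole table. In the chi-square test with Benjamini-Hochberg adjustment over 353 miRNAs, 90.1% of those tested and all 4 arms passed an adjusted p of 0.05. The arms' share was thus near the background of tested miRNAs. The adjusted p was 2.62e-68 for miR-222-3p, 4.54e-14 for miR-221-5p and 5.66e-10 for miR-222-5p. For miR-221-3p the chi-square statistic was 22640. This test compares libraries, not conditions. Without library 1, 2 of 4 arms passed, against 61.5% of miRNAs tested, and miR-221-5p (adjusted p = 0.73) and miR-222-5p (adjusted p = 0.0699) did not.

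Between the libraries the arms moved in different directions. For library 1 over library 3 the log2 ratio was 1.39 for miR-221-3p, -0.13 for miR-222-3p, -0.85 for miR-221-5p and 0.43 for miR-222-5p, on the log2(CPM + 1) scale. The median over those 134 abundant miRNAs was 0.96, so miR-221-3p lay above the middle of all miRNAs in that contrast and the other 3 arms below it. For library 1 over library 2 the median was 0.62, with 0.55 for miR-221-3p, 0.17 for miR-222-3p, -0.89 for miR-221-5p and 0.65 for miR-222-5p. TMM factors, applied to plain ratios, moved each log2 ratio of library 1 by -0.62 against library 2 and by -0.78 against library 3. Under them miR-221-3p was lower in library 1 than in library 2 (log2 ratio -0.06) but still higher than in library 3 (0.60), and miR-222-3p was lower in library 1 than in both. MiR-222-5p then stood at 0.04 against library 2 and -0.35 against library 3. MiR-221-5p was lower in library 1 than in either other library under all scalings tried, with log2 ratios down to -1.79.

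The ratio between the 2 miRNAs within a library does not depend on scaling. MiR-221-3p counts were 4.75 times those of miR-222-3p in library 1 (exact Clopper-Pearson 95% interval 4.67 to 4.83), 3.63 times in library 2 (3.56 to 3.71) and 1.66 times in library 3 (1.63 to 1.69). MiR-221-3p was thus higher in 3 of 3 libraries, and the intervals did not overlap, so the ratio changed by 2.86 times between libraries. The mean log2 ratio was 1.61 ± 0.79 (SD, n = 3), and the exact two-sided sign permutation test gave p = 0.25, the smallest that 3 libraries allow.

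For the 5p arms the order was not stable. MiR-221-5p counts were 0.403 times those of miR-222-5p in library 1 (exact interval 0.342 to 0.473), 1.19 times in library 2 (1.01 to 1.40) and 0.986 times in library 3 (0.857 to 1.13). In library 1 miR-222-5p was the higher arm, and in library 3 the arms could not be told apart by counting error. The mean log2 ratio was -0.36 ± 0.83 (SD, n = 3), with p = 0.75 in the exact sign permutation test, and 0.11 without library 1. Library 1 therefore had the highest ratio of miR-221 to miR-222 by the 3p arms and the lowest by the 5p arms.

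**Figure D2:**
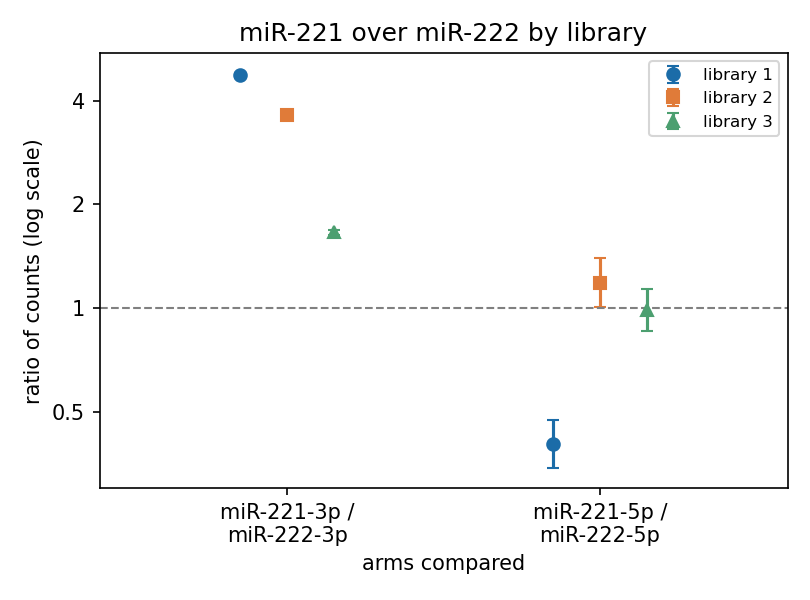
Counts of miR-221 divided by counts of miR-222 (log scale) for the 3p arms and the 5p arms in libraries 1, 2 and 3, with exact 95% counting intervals and a dashed line at equality. The 3p ratio is above 1 in all 3 libraries, from 1.66 to 4.75, while the 5p ratio is 0.403 in library 1 and near 1 in libraries 2 and 3.

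Which arm of each hairpin was more abundant in the exosome libraries was tested over all hairpins with both arms in the table. Without the parent cells, these ratios do not show what each hairpin yields in the cell. The 3p arm of miR-221 had 371 counts per 5p count in library 1 (exact interval 324 to 427), 135 in library 2 (121.5 to 152) and 78.2 in library 3 (70.9 to 86.4). The 3p arm of miR-222 had 31.5 counts per 5p count in library 1 (28.8 to 34.4), 44.2 in library 2 (39.2 to 50.0) and 46.4 in library 3 (42.1 to 51.3). The 3p strand was thus the more abundant arm of both hairpins in every library, and the mir-221 ratio was the larger one in each.

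In edgeR's quasi-likelihood test with library and arm as terms, the log2 ratio of 3p to 5p was 7.29 ± 0.96 (SE, n = 3) for mir-221, with adjusted p = 1.45e-12. For mir-222 it was 5.33 ± 0.93 (SE, n = 3), with adjusted p = 6.55e-08. These SEs come from the fitted model, not from each hairpin's own spread over libraries. The SD of the log2 ratio over the 3 libraries was 1.14 for mir-221 and 0.31 for mir-222. Both called 3p arms stand beside 38.9% of 157 hairpins called with the 3p arm higher and 80.3% called in either direction. The median size of the log2 arm ratio was 6.24, and 65 hairpins had a larger one than mir-221 and 91 a larger one than mir-222. A strong excess of one arm over the other was thus common in these libraries. Without library 1 the log2 ratio was 6.68 for mir-221 and 5.50 for mir-222, and both passed.

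**Figure D3:**
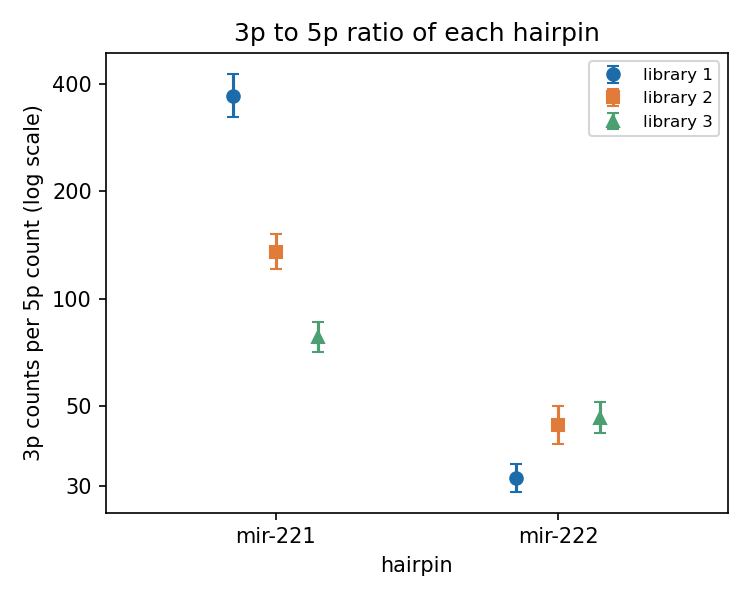
Counts of the 3p arm per count of the 5p arm (log scale) for mir-221 and mir-222 in libraries 1, 2 and 3, with exact 95% counting intervals. The mir-221 ratio spreads from 78.2 to 371 and the mir-222 ratio from 31.5 to 46.4, with library 1 highest for mir-221 and lowest for mir-222.

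The 5p arm took 0.269%, 0.733% and 1.26% of mir-221 counts in libraries 1, 2 and 3, and 3.08%, 2.21% and 2.11% of mir-222 counts. Library 1 had the smallest 5p share of mir-221 and the largest of mir-222. Each hairpin's arm share was compared between libraries by a chi-square test over 81 hairpins, of which 93.8% passed an adjusted p of 0.05. Both members passed, mir-221 with adjusted p = 1.43e-84 and mir-222 with adjusted p = 2.99e-09. Without library 1 mir-221 still passed (adjusted p = 6.17e-13), against 50.6% of hairpins tested, and mir-222 did not (adjusted p = 0.597).

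The 3p to 5p ratio of mir-221 changed by 4.75 times between libraries, or 2.25 on the log2 scale, and that of mir-222 by 1.48 times, or 0.56. Without library 1 the change of the mir-221 ratio was 1.73 times, and without library 3 it was 2.74 times. The median change over the 81 hairpins was 2.25 on the log2 scale, so mir-221 stood in the middle of them with 40 hairpins above it, while 78 hairpins changed more than mir-222. The neighbouring hairpins thus lay at different places in the same distribution.

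**Figure D4:**
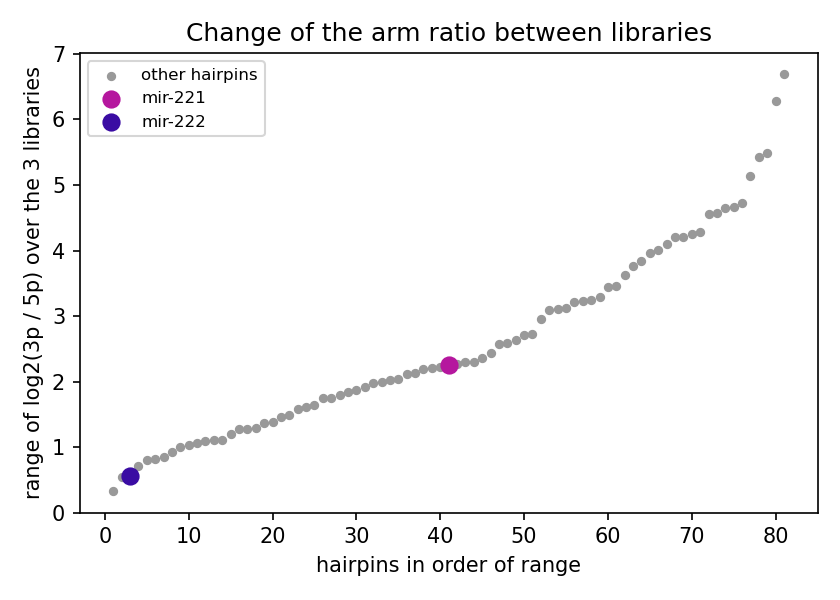
Range over the 3 libraries of log2(3p / 5p) for the 81 hairpins tested, in rising order, with mir-221 and mir-222 marked. Mir-221 lies at the median, 2.25, and mir-222 near the low end, at 0.56.

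To give the 3p ratio a scale, it was set beside other miRNAs encoded side by side. Of 17 listed pairs 13 had at least 10 counts of both miRNAs in every library, counting miR-221-3p with miR-222-3p. Their log2 ratio ranged over 1.52 between libraries, against a median of 1.87 for the other 12 pairs, of which 7 had a wider range and 5 a narrower one. The narrowest was that of miR-17-5p with miR-20a-5p, 0.19, and the widest that of miR-30d-5p with miR-30b-5p, 4.04. In 10 of the 13 pairs, miR-221-3p with miR-222-3p among them, the same member was the higher one in every library. The ratio was highest in library 1 and lowest in library 3 for miR-221-3p with miR-222-3p and for 5 of the other 12 pairs. This order was looked for after the values were seen. The count of 5 depends on which member of a pair was listed first, since swapping the members reverses the order. It therefore shows no trend shared by the pairs. Some of these miRNAs have near copies elsewhere in the genome, and the pairs share the same 3 libraries.

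**Figure D5:**
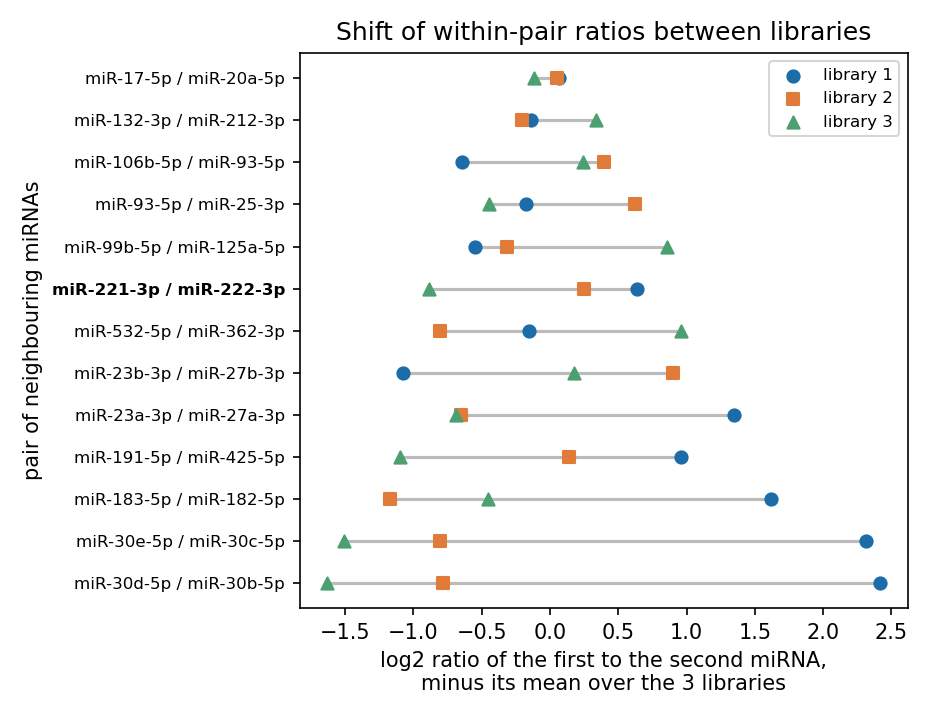
Log2 ratio of the first to the second miRNA of each pair in libraries 1, 2 and 3, minus its mean over them, with pairs in order of range and the widest at the bottom. The range of miR-221-3p to miR-222-3p, 1.52 and set in bold, lies between the narrowest, 0.19, and the widest, 4.04.

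The neighbours of each 3p arm in the order of mean CPM mostly did not differ from it beyond the spread between libraries. Above miR-221-3p stood let-7g-5p, miR-92a-3p and miR-140-3p, and below it miR-378a-3p, miR-27a-3p and miR-30a-5p. Apart from let-7g-5p, at 26080 ± 7502 CPM (SD, n = 3), their means lay within 1 SD (the larger of the 2 SDs) of that of miR-221-3p, and none of the 6 was above it or below it in all 3 libraries. Around miR-222-3p stood miR-151-3p, miR-191-5p and miR-532-5p above and miR-99b-5p, miR-182-5p and miR-22-3p below. Again 5 of 6 lay within 1 SD, the exception being miR-22-3p at 4579 ± 846 CPM (SD, n = 3), and none was on the same side of miR-222-3p in every library.

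Likeness of pattern was measured as the distance between log2(CPM + 1) profiles over the 3 libraries, each centred on its mean, among miRNAs that averaged 100 CPM or more. Nearest to miR-221-3p were miR-342-3p (148.9, 106.4 and 65.4 CPM in libraries 1, 2 and 3), miR-32-5p, miR-3535, miR-24-2-5p and miR-1839-5p, at distances from 0.15 to 0.28 against a median of 1.28 for 133 candidates. All 5 were highest in library 1 and lowest in library 3, which follows from choosing them by likeness to miR-221-3p. MiR-342-3p is also one of the myeloid markers above. Nearest to miR-222-3p were miR-28a-3p (137, 117 and 136 CPM), miR-146a-5p, miR-99b-5p, miR-1843a-5p and miR-99b-3p, at distances from 0.09 to 0.30 against a median of 1.35. The 3p arms were 1.11 apart, and 54 miRNAs were nearer to miR-221-3p than miR-222-3p was. These distances rest on 3 values per miRNA, and with candidates down to a mean of 10 CPM only 1 of 5 names was shared for each arm.

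The levels were also set beside miRNAs linked to the same processes, by lists chosen by function but with earlier results of these data known. Of 15 proliferation-linked miRNAs all had counts in every library, with a median of 2363 CPM against 32.5 CPM for all 353 miRNAs tested, and all 15 differed between libraries in the chi-square test, as 90.1% of all miRNAs tested did. By mean CPM 2 of them, miR-21a-5p and miR-92a-3p, stood above miR-221-3p and 10 below miR-222-3p, and miR-25-3p, encoded beside miR-106b, was the next of them at 31984, 6108 and 5257 CPM in libraries 1, 2 and 3. Of 13 vessel-linked miRNAs 12 had counts in every library and 10 of 10 tested differed between libraries, again beside 90.1% of all miRNAs tested. The median of this list was 728 CPM, and 16130 CPM over the 10 tested. Let-7f-5p, miR-27b-3p and miR-24-3p stood above miR-221-3p, while miR-126a-3p, the main endothelial miRNA, had 21.6, 43.8 and 23.7 CPM in libraries 1, 2 and 3 and miR-296-5p had no counts. Of 11 miRNAs linked to blood progenitors and red cells 8 had counts in every library and 8 of 8 tested differed, beside the same 90.1%. Here the median was 40.4 CPM, and 902 CPM over the 8 tested. Only miR-146a-5p and miR-24-3p of this list were above either 3p arm by mean CPM, followed by miR-125b-5p at 2093, 1818 and 805 CPM.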

How the data were processed

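Small RNA libraries from exosomes were made with a NEBNext kit and read from one end on a HiSeq, per the labels' protocols. Bcl2fastq, BWA and the build mm10 are named in the submitters' processing notes. Read trimming, the release of miRNA names and how multiply matching reads were counted are not given in the sources used here. For each mature miRNA the authors deposited a count and an RPM value. As worked out from these columns, RPM divides the count by 14047692 in library 1, 13995845 in library 2 and 14002577 in library 3 and multiplies by 1000000. MiRNA counts make up 21.4%, 17.8% and 22.9% of these divisors, so counts were scaled here to each library's miRNA total and RPM served as an alternative.

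Members and lists were chosen with earlier results of these data known. Named miRNAs are the 4 arms, those sharing a seed, the 3 nearest in rank on each side and the 5 nearest profiles of each 3p arm, members of listed neighbouring pairs, the top 3 of each list and cell markers. The chi-square test over libraries took miRNAs whose counts summed to 30 or more. The arm test (edgeR 4.0.16, R 4.3.3) took hairpins whose counts summed to 60 or more, with arms matched by name (749 hairpins, 157 tested), and DESeq2 1.42.0 was an alternative. Both arms of a hairpin come from the same library, so library was a block. The arm share test needed expected counts of at least 5. On simulated data the arm test recovered 60% of 4-fold and 95% of 16-fold differences among 155 hairpins, and the chi-square test over libraries called 134 of 200 miRNAs changed 1.5-fold and 1 of 153 unchanged ones. Simulated counts for the chi-square test hold counting error only. Folds were predicted with ViennaRNA 2.7.2. Hairpin and mature sequences are from RefSeq (1623 of 1915 names matched), and 3′ untranslated regions from GENCODE M21.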

Additional observations from a re-analysis of the deposited data

How the results depend on the processing

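The mean of both 3p arms together was 23348 CPM, and 22576 with TMM factors, 22577 with DESeq2 size factors and from 19276 to 27058 when 1 library was left out. Both sets of factors were rescaled to the geometric mean of the totals, so close means were largely built in. Values by library did change: with TMM factors miR-221-3p was at 18818, 19684 and 12384 in libraries 1, 2 and 3. MiR-222-3p was then at 3962, 5418 and 7464. In the authors' RPM, whose denominator is several times larger, it was 4807. Both arm calls passed under every alternative run. Without 1 library the log2 ratio was 6.68 to 7.81 for mir-221 and 5.22 to 5.50 for mir-222. With no replicate block it was 7.35 for mir-221 and 5.30 for mir-222, and the block changed no call on them. The number of arms that differed between libraries was 2 to 4 without 1 library. The arm share statistic of mir-222 was 0.388 to 34.6 without 1 library, the lowest being without library 1. The log2 ratio of the 3p arms was 1.30 to 2.05 and that of the 5p arms -0.67 to 0.11 without 1 library. Directions that turned against scaling to totals were those of miR-221-3p (-0.065 with TMM, -0.19 with DESeq2 factors) and miR-222-3p (-0.45 and -0.57) for library 1 over library 2, miR-222-5p for library 1 over library 2 (-0.082 with DESeq2 factors) and over library 3 (-0.35 and -0.50), and miR-221-5p for library 2 over library 3 (-0.12 and -0.15). The cause was not tested. These direction checks, the other scalings of the summed 5p arms and leaving libraries out of the 5p ratio and of the change in the mir-221 arm ratio were chosen after seeing the data. With no filter on low counts 41.8% of 886 miRNAs passed the chi-square test over libraries and 50.5% of 206 hairpins the arm share test. With 1 group, nothing here compares conditions.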
